A study of Mus musculus with 27 samples.

Results

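A set of 10 genes that cones use to turn light into an electrical signal were followed across retinas of 9-month-old mice that differed in Gne and in C3. The genes were taken by symbol from a list of cone phototransduction genes, and all 10 were found among the 55487 genes of the count table. They were Opn1sw, Opn1mw, Gnat2, Gngt2, Pde6c, Pde6h, Cnga3, Cngb3, Arr3 and Kcne2. The mice formed 4 groups: Gne+/- C3-/- (6 retinas), Gne+/- C3+/+ (7 retinas, called Gne+/- here), Gne+/+ C3-/- (7 retinas, called C3-/- here) and Gne+/+ C3+/+ (7 retinas, called wildtype here). Gne is the gene of the enzyme with which cells begin to make sialic acid, and C3 is the protein on which all complement pathways converge. Libraries were made from 100 ng of total RNA of homogenised retina with the QuantSeq 3′ mRNA kit, and each library came from a separate mouse number. They were sequenced in 2 runs: run 1 held 4 Gne+/- C3-/-, 5 Gne+/-, 4 C3-/- and 5 wildtype libraries, and run 2 held 2, 2, 3 and 2 in the same order. The labels used here give no sex for any mouse.

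Cones are the photoreceptors of daylight and colour vision and are a small minority beside rods in the mouse retina. A cone opsin, sensitive to short (Opn1sw) or middle wavelengths (Opn1mw), activates the G protein transducin, whose cone subunits include Gnat2 and Gngt2. Transducin relieves the inhibitory subunit (Pde6h) from the catalytic phosphodiesterase subunit (Pde6c), cyclic GMP falls, and the channel formed by Cnga3 and Cngb3 closes. Cone arrestin (Arr3) binds the activated opsin and ends its signal. Kcne2 encodes an accessory subunit of potassium channels and has no part in the opsin-to-channel chain.

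The promoters of the opsins and of cone arrestin are shown because Opn1mw and Arr3, which both lie on the X chromosome, gave the largest Pearson correlation of run-centred levels among the pairs, a relation seen in run 1 and not in run 2, and Opn1sw is the opsin set against Opn1mw. RefSeq promoter windows of 300 bases (250 before the start site and 50 after) were held for 7 of the 10 genes, in 9 windows. The Opn1sw window is chr6:29380464-29380763 on the minus strand, the Opn1mw window is chrX:74127216-74127515 on the plus strand and the Arr3 window is chrX:100605247-100605546 on the plus strand (GRCm38.p6). Capitals mark AGGTCA, a half-site bound by nuclear receptors, read on either strand.
Opn1sw: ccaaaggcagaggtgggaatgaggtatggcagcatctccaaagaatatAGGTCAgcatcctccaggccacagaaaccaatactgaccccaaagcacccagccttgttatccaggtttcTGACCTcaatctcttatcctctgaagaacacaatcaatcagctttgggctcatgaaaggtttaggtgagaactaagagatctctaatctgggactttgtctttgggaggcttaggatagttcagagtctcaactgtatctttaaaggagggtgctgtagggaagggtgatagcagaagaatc
Opn1mw: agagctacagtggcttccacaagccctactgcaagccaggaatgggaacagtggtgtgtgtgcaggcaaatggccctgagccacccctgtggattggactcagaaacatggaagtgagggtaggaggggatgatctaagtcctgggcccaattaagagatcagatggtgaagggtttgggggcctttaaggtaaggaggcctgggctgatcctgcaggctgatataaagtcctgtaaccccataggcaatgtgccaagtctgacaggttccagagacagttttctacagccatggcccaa
Arr3: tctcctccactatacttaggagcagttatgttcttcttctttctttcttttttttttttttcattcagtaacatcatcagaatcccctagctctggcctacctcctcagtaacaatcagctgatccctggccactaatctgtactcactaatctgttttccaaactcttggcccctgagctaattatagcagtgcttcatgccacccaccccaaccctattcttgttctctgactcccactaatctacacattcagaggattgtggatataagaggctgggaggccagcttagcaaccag
AGGTCA has 2 matches in the Opn1sw window, starting at -202 and -132 from the start site, and none in the other 8 windows. TAATCC, the core bound by the photoreceptor factor CRX, was also searched on both strands. It was found only in the Gnat2 window, starting at -19. Over all 32851 promoter windows, 16.3% held AGGTCA and 7.06% held TAATCC, and the 2 motifs share no overlapping match here.

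The libraries held 13.5 to 34.2 M counts. Gne averaged 39.6 ± 5.26 CPM in Gne+/- C3-/- libraries of run 1 and 47.6 ± 8.37 CPM in Gne+/- libraries, against 117 ± 12.6 CPM in C3-/- and 129 ± 22.5 CPM in wildtype libraries (SD, n = 4, 5, 4 and 5; CPM values are counts scaled with TMM to a common library size). C3 was between 0 and 3.6 CPM in every C3-/- library of either Gne genotype and between 53.9 and 285 CPM in every C3+/+ library, so both targeted genes followed the labels. Rod phototransduction genes summed to 32900 to 96600 CPM, and the 10 cone genes to between 2.37% and 4.63% of that rod sum. The whole retina was measured, so fewer cones and less RNA per cone cannot be told apart.

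The opsins showed no genotype difference past the threshold. Opn1sw had 638, 734, 806 and 689 CPM in Gne+/- C3-/- libraries of run 1, 637, 593, 648, 508 and 900 CPM in Gne+/- libraries, 657, 687, 652 and 828 CPM in C3-/- libraries, and 792, 672, 619, 817 and 964 CPM in wildtype libraries. In run 2 it had 207 and 199 CPM in Gne+/- C3-/-, 260 and 211 CPM in Gne+/-, 280, 180 and 141 CPM in C3-/-, and 200 and 257 CPM in wildtype libraries. The 4 genotypes overlapped in run 1, while in run 2 both Gne+/- C3-/- libraries lay below both Gne+/- ones and the other pairs of genotypes overlapped. Opn1mw had 259, 289, 298 and 286 CPM in Gne+/- C3-/- libraries of run 1, 156, 167, 226, 207 and 348 CPM in Gne+/- libraries, 227, 282, 309 and 439 CPM in C3-/- libraries, and 259, 152, 188, 235 and 340 CPM in wildtype libraries. In run 2 Opn1mw had 136 and 115 CPM in Gne+/- C3-/-, 115 and 109 CPM in Gne+/-, 147, 166 and 125 CPM in C3-/-, and 165 and 109 CPM in wildtype libraries. The genotypes overlapped in run 1, while in run 2 the C3-/- libraries lay above the Gne+/- ones and the other pairs overlapped. For both opsins, the run 2 groups of 2 or 3 libraries can part easily by chance. The share of all genes apart in those pairs was not taken. The fitted log2 fold changes of Opn1mw were 0.31 (SE 0.167) for C3-/- against wildtype and 0.29 (SE 0.173) for Gne+/- C3-/- against Gne+/-, with edgeR adjusted p of 0.999 and 0.816.

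**Figure D1:**
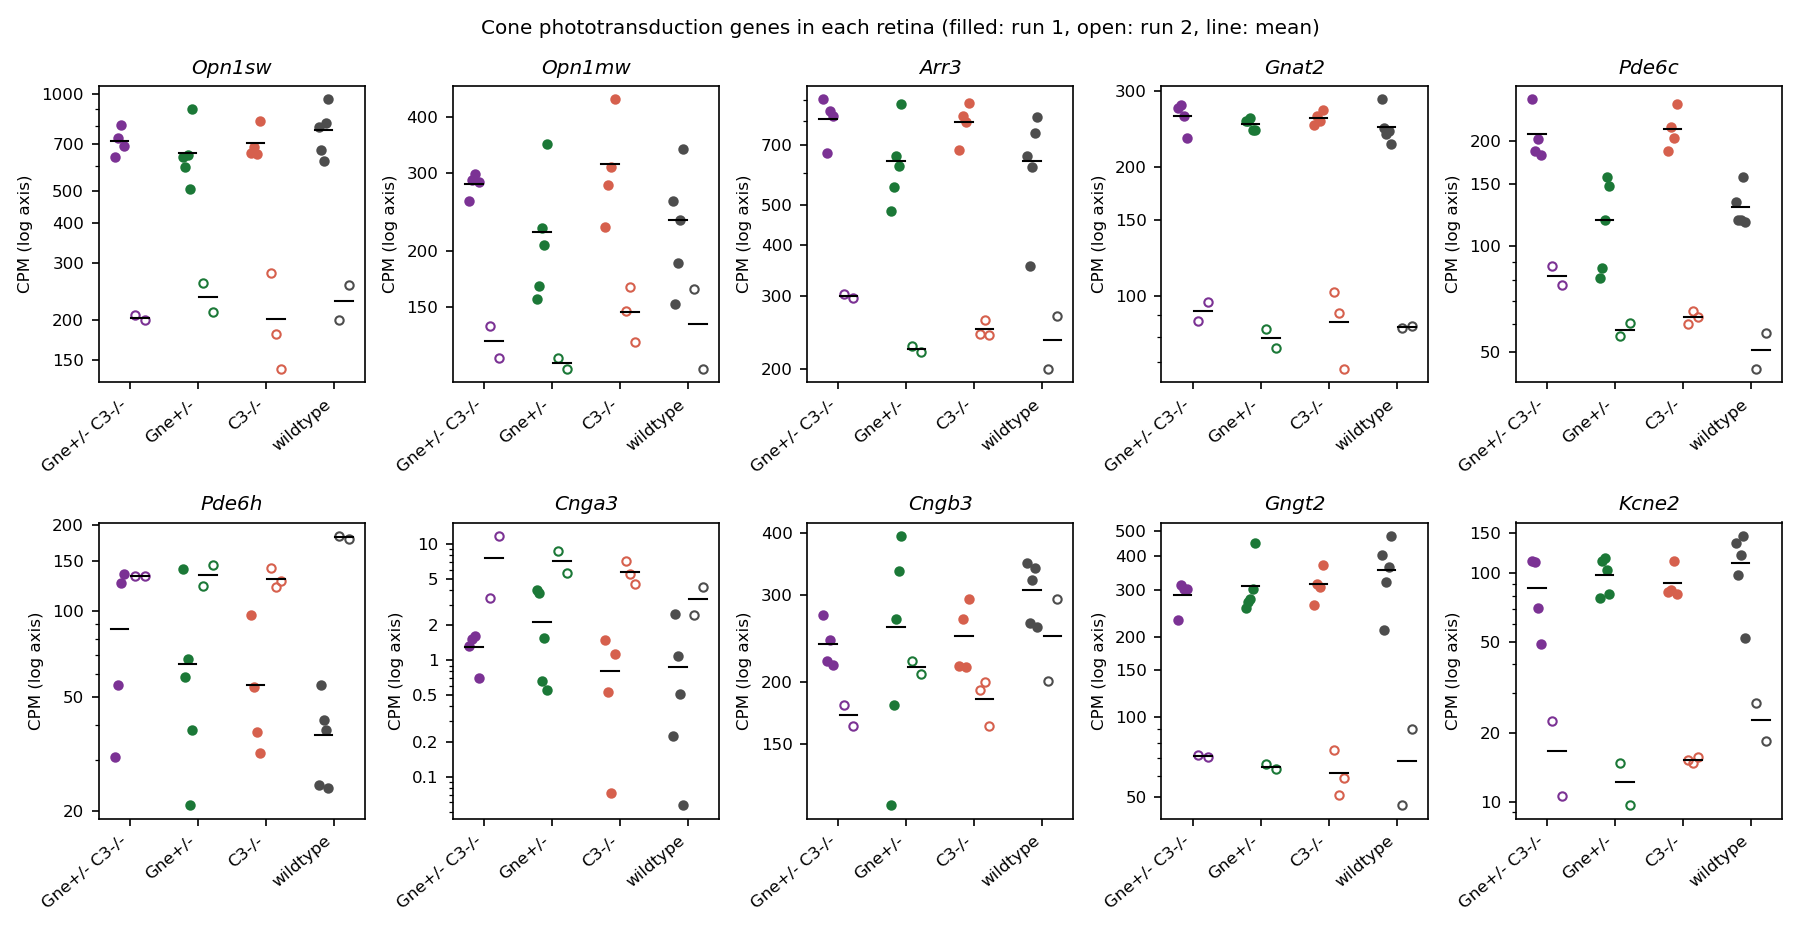
Level of each of the 10 cone genes in every retina, in CPM on a log axis, by genotype; filled points are run 1, open points run 2 and lines the mean of a genotype in a run. Run 2 sits far below run 1 for Opn1sw, Arr3, Gnat2, Pde6c, Gngt2 and Kcne2, and Pde6c is the gene whose C3-/- libraries of both Gne genotypes (182 to 262 CPM) stand clear of all C3+/+ libraries (81 to 158 CPM) in run 1.

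The balance of the opsins was read as the log2 ratio of Opn1sw to Opn1mw counts, with 0.5 added to each count. In run 1 the ratio averaged 1.34 ± 0.0729 in Gne+/- C3-/-, 1.61 ± 0.31 in Gne+/-, 1.2 ± 0.267 in C3-/- and 1.76 ± 0.243 in wildtype libraries on the log2 scale (SD, n = 4, 5, 4 and 5). In run 2 it averaged 0.7 ± 0.129 in Gne+/- C3-/-, 1.06 ± 0.16 in Gne+/-, 0.41 ± 0.455 in C3-/- and 0.76 ± 0.672 in wildtype libraries (SD, n = 2, 2, 3 and 2). Both C3 comparisons thus had the lower ratio in the C3-/- mice. With runs centred, C3-/- against wildtype differed by -0.47 (exact 2-sided permutation p = 0.0349 within run, 0.0698 adjusted over the 4 comparisons). Gne+/- C3-/- against Gne+/- differed by -0.3 (exact permutation p = 0.0304, 0.0698 adjusted), so neither passed 0.05 after adjustment. The Gne comparisons gave -0.02 for Gne+/- against wildtype and 0.19 for Gne+/- C3-/- against C3-/- (exact permutation, adjusted p = 0.923 and 0.278). Within run 1 alone the C3 differences were -0.55 and -0.27, and within run 2 alone -0.35 and -0.37. Opn1sw shares 44% of its last 1000 bases with the neighbouring gene Calu, and reads there were not counted, so the ratio is not one of molecules.

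The cone transducin subunits had no genotype call. Gnat2, the alpha subunit, lay between 226 and 287 CPM in all 18 libraries of run 1 and between 67.5 and 102 CPM in all 9 of run 2. Its fitted log2 fold changes ran from -0.01 (95% interval -0.2 to 0.18) for Gne+/- against wildtype to 0.1 (-0.09 to 0.3) for Gne+/- C3-/- against Gne+/-. Its biological coefficient of variation between mice was 14.7%, at percentile 0.264 of the tested genes. Gngt2, the gamma subunit, averaged 286 ± 37.4 CPM in Gne+/- C3-/-, 310 ± 78.4 CPM in Gne+/-, 314 ± 44.1 CPM in C3-/- and 355 ± 99.3 CPM in wildtype libraries of run 1 (SD, n = 4, 5, 4 and 5). In run 2 Gngt2 averaged 71.2 ± 0.726, 65.1 ± 1.87, 61.8 ± 12.5 and 68.3 ± 30.6 CPM in the same order (SD, n = 2, 2, 3 and 2). Abi3 covers 61.8% of the Gngt2 span but none of its last 1000 bases.

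Pde6c, the catalytic subunit of the cone phosphodiesterase, was the one member with a genotype difference past the threshold, and it was higher without C3. It lies at chr19:38132781-38183958 on the plus strand (GRCm38), with no other annotated gene over its span. In run 1 it had 262, 187, 202 and 182 CPM in Gne+/- C3-/- libraries, against 81, 86.5, 119, 158 and 148 CPM in Gne+/- libraries. C3-/- libraries of run 1 had 187, 219, 204 and 254 CPM, against 134, 119, 119, 157 and 117 CPM in wildtype libraries. Every C3-/- library of run 1, of either Gne genotype, thus stood above every C3+/+ library of that run. In run 2 Pde6c had 87.6 and 77.4 CPM in Gne+/- C3-/- libraries, against 55.4 and 60.4 CPM in Gne+/- libraries. C3-/- libraries of run 2 had 60.2, 65.3 and 62.8 CPM, against 44.8 and 56.6 CPM in wildtype libraries. Each of these pairs of groups was apart in run 2 as well, although the lowest C3-/- library (60.2 CPM) lay below the higher Gne+/- one (60.4 CPM). Groups of 2 or 3 libraries, as in run 2, part easily by chance. The share of all genes apart in these run 2 pairs was not taken.

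Pde6c rose in Gne+/- C3-/- against Gne+/- retinas by 0.72 on the log2 scale (SE 0.15, 1.65-fold, edgeR quasi-likelihood adjusted p = 0.0245), 1 of 10 members called where 0.19% of 17409 tested genes were. Gne+/- C3-/- against wildtype gave 0.7 (SE 0.151, 1.62-fold, edgeR adjusted p = 0.04), again 1 of 10 members, where 0.155% of genes were called. C3-/- against wildtype gave 0.57 (SE 0.146, 1.49-fold, unadjusted p = 0.000394), which did not pass adjustment (edgeR adjusted p = 0.143), so 0 of 10 members were called where 0.167% of genes were. The first 2 comparisons share the Gne+/- C3-/- libraries, and the last shares the wildtype libraries with the second. Within run 1 alone the log2 differences were 0.8, 0.7 and 0.73, and within run 2 alone 0.51, 0.71 and 0.32, in the same order, with no adjusted p under 0.05. In run 1, groups without overlap were found for 2.4% of tested genes in Gne+/- C3-/- against Gne+/-, for 2.18% in C3-/- against wildtype, and for 0.287% when both C3-/- genotypes (8 libraries) were set against both C3+/+ genotypes (10 libraries); Pde6c was the 1 member in each.

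The call was near the threshold. For Gne+/- C3-/- against Gne+/- the edgeR adjusted p passed 0.05 when Gne+/- mouse 1, 2 or 3 or Gne+/- C3-/- mouse 3 or 7 was left out (0.0604, 0.0773, 0.0648, 0.114 and 0.0714), with log2 values of 0.63 to 0.79 over all 27 fits. For Gne+/- C3-/- against wildtype it was lost in 14 of 27 such fits, with an adjusted p of up to 0.154 and log2 values of 0.62 to 0.74. These fits left out Gne+/- C3-/- mouse 3, 4, 5, 7 or 8, Gne+/- mouse 3, C3-/- mouse 1, 2 or 5, or wildtype mouse 1, 2, 4, 6 or 7. In the C3-/- against wildtype comparison the Y-linked level went with genotype in opposite ways in the runs: the summed level of 4 Y-linked genes was over 10 CPM in 4 of 4 C3-/- and 0 of 5 wildtype libraries of run 1, and in 0 of 3 C3-/- and 2 of 2 wildtype libraries of run 2. Pde6c was higher in C3-/- libraries in both runs, and the part of sex in this difference was not tested. With the Y-linked level in the model the log2 difference of C3-/- against wildtype was 0.49 (edgeR adjusted p = 0.383), that of Gne+/- C3-/- against wildtype 0.61 (0.129), and that of Gne+/- C3-/- against Gne+/- was 0.7 (0.0169). Markers of neighbouring tissue were also unequal: in run 1 the 13 listed lens genes summed to 4.25 to 167 CPM in Gne+/- C3-/- and 131 to 1790 CPM in Gne+/- libraries, and the 10 pigment epithelium genes to 441 to 577 CPM and 241 to 495 CPM in these groups. Cryba1 and Lrat were at 0 in all libraries, and the part of these tissues in the Pde6c difference was not tested.

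**Figure D2:**
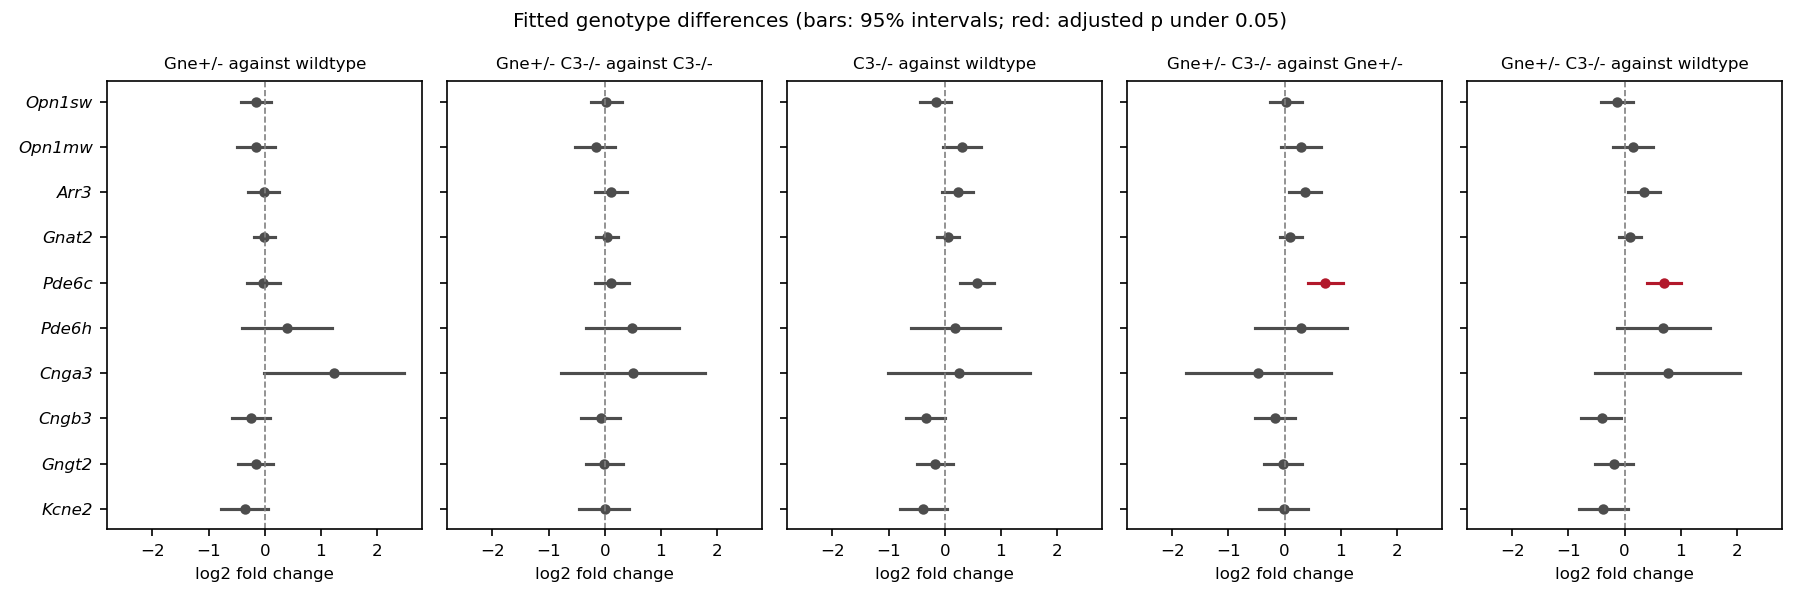
Fitted log2 fold change of each cone gene in 5 genotype comparisons; points are edgeR estimates, bars 95% intervals, and red marks an adjusted p under 0.05. Pde6c is red at 0.72 and 0.7, and Cnga3 has the widest intervals.

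Pde6h, the inhibitory subunit that pairs with Pde6c, showed no call and a wide spread. It had 30.7 to 135 CPM in Gne+/- C3-/-, 20.9 to 140 CPM in Gne+/-, 31.7 to 96.8 CPM in C3-/- and 23.9 to 55 CPM in wildtype libraries of run 1. The log2 fold change of Gne+/- C3-/- against wildtype was 0.69 (95% interval -0.14 to 1.52), and in run 2 the order was the other way, with 133 ± 0.19 CPM in Gne+/- C3-/- and 181 ± 2.75 CPM in wildtype libraries (SD, n = 2 each). Its biological coefficient of variation was 48.6%, and Arhgdib covers 40.1% of its span but none of its last 1000 bases.

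The channel genes had no genotype call, and Cnga3 was the least precise member, with a biological coefficient of variation of 72.6% against 23.3% for Cngb3. Cnga3, the main channel subunit, had 1 to 65 counts a library in run 1 and 58 to 301 in run 2, and its log2 difference of 1.23 for Gne+/- against wildtype had a 95% interval of -0.02 to 2.48. Cngb3, the modulatory subunit, averaged 239 ± 25.8 CPM in Gne+/- C3-/-, 258 ± 114 CPM in Gne+/-, 249 ± 39.8 CPM in C3-/- and 307 ± 42.3 CPM in wildtype libraries of run 1 (SD, n = 4, 5, 4 and 5). In run 2 the averages were 172 ± 11.5, 215 ± 9.57, 185 ± 19.7 and 248 ± 66.9 CPM in the same order (SD, n = 2, 2, 3 and 2). Its log2 fold changes were -0.41 (SE 0.175, unadjusted p = 0.0236) for Gne+/- C3-/- against wildtype and -0.34 (SE 0.168, unadjusted p = 0.0483) for C3-/- against wildtype, with edgeR adjusted p of 0.878 and 0.999. In both comparisons the estimate of Pde6c was positive and that of Cngb3 negative.

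Pde6c and Cngb3 rose and fell together from mouse to mouse within a genotype, and the level of Pde6c at a given Cngb3 level was higher without C3. Centred on genotype and run, their log2 levels had r = 0.88 over the 27 libraries, 0.9 in run 1 and 0.74 in run 2, against 0.23 when the run alone was centred. The ratio of Pde6c to Cngb3 CPM was chosen after these values were seen and has no test. In run 1 it averaged 0.869 ± 0.0611 in Gne+/- C3-/-, 0.498 ± 0.13 in Gne+/-, 0.871 ± 0.055 in C3-/- and 0.423 ± 0.0424 in wildtype libraries (SD, n = 4, 5, 4 and 5). In run 2 the averages were 0.481 ± 0.00961 in Gne+/- C3-/-, 0.27 ± 0.0286 in Gne+/-, 0.342 ± 0.0392 in C3-/- and 0.208 ± 0.0224 in wildtype libraries (SD, n = 2, 2, 3 and 2). The lowest C3-/- library of either Gne genotype had 0.815 in run 1 and 0.312 in run 2, against highest C3+/+ libraries of 0.719 and 0.291, so the ratio parted the C3 genotypes in both runs. Among the ratios of all 17408 other tested genes to Cngb3, 0.0862% did so in both runs in the same direction, and 1 of the 9 members' ratios, that of Pde6c, was one of them. Of single gene levels, 0.109% of all tested genes and 0 of 10 members did. Among the ratios of all 45 pairs of members, 4 parted the C3 genotypes in run 1 and 2 in run 2. Only Pde6c to Cngb3 did so in both. The 0.0862% takes Cngb3 as given and does not allow for the choice of this pair from these data.

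**Figure D3:**
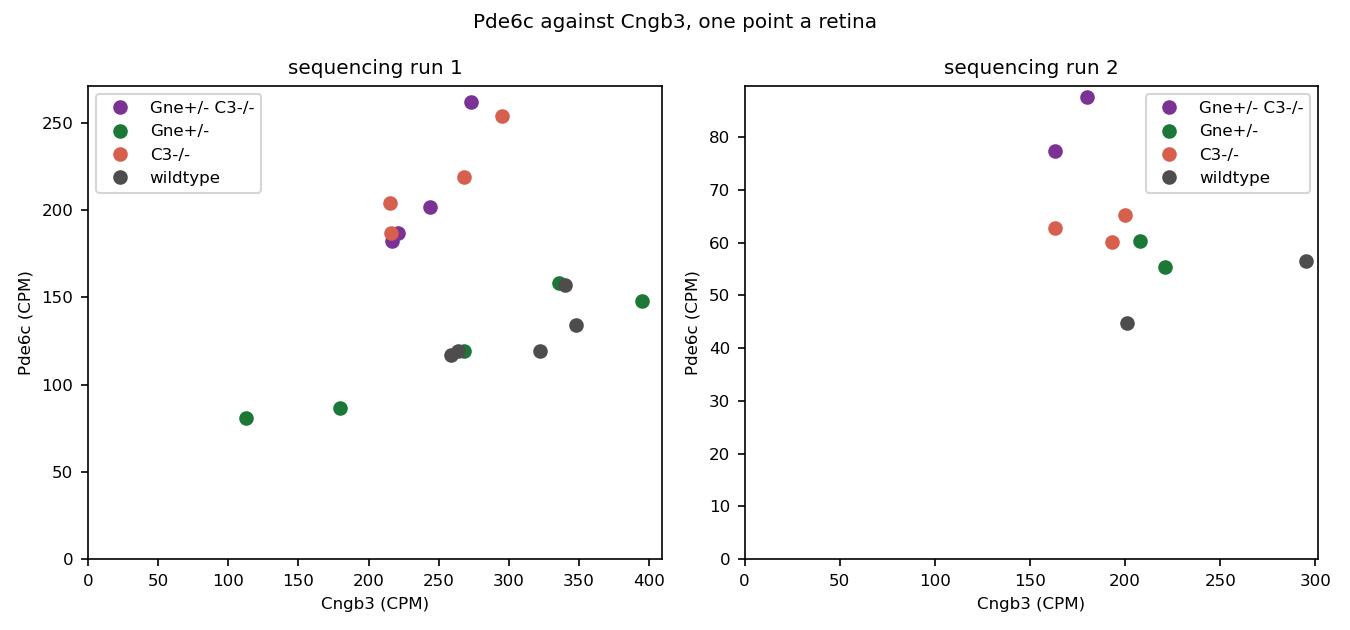
Pde6c against Cngb3 in CPM, one point a retina, with run 1 on the left and run 2 on the right. Gne+/- C3-/- and C3-/- retinas lie on a steeper line from the origin (ratios of 0.815 or more in run 1 and 0.312 or more in run 2) than Gne+/- and wildtype retinas (0.719 or less and 0.291 or less).

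Arr3, cone arrestin, gave positive estimates in both C3 comparisons without a call. It had 904, 668, 845 and 822 CPM in Gne+/- C3-/- and 485, 553, 659, 623 and 879 CPM in Gne+/- libraries of run 1, and 303 and 297 CPM against 227 and 220 CPM in run 2. The groups overlapped in run 1 and not in run 2, where each held only 2 libraries and can part easily by chance. The share of all genes apart in this run 2 pair was not taken. Its log2 fold change was 0.37 (SE 0.141, unadjusted p = 0.013, edgeR adjusted p = 0.661) in this comparison and 0.23 (SE 0.136, adjusted p = 0.999) for C3-/- against wildtype. Kcne2 had log2 fold changes of -0.38 (SE 0.208) for C3-/- against wildtype and -0.36 (SE 0.208) for Gne+/- against wildtype, with edgeR adjusted p of 0.999 and 0.866. Within run 1 alone these were -0.29 (SE 0.253) and -0.13 (SE 0.237). Within run 2 alone they were -0.57 (SE 0.331) and -0.89 (SE 0.368). Over all genotypes Kcne2 lay between 49.3 and 146 CPM in run 1 and between 9.65 and 27 CPM in run 2.

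Loss of 1 Gne copy gave no call among the 10 genes. For Gne+/- against wildtype 0.00574% of tested genes were called, 0 of 10 members among them, and the members' median log2 difference was -0.09 where that of all genes was 0.01. For Gne+/- C3-/- against C3-/- the share called was again 0.00574%, with 0 of 10 members and a median of 0.03 against -0.01 for all genes. No member had an unadjusted p under 0.05 in either comparison, where 5.76% and 1.35% of all genes had one; DESeq2 also called 0 members. The 95% intervals for Gne+/- against wildtype kept Gnat2 within -0.2 and 0.18, Arr3 within -0.3 and 0.25, Pde6c within -0.32 and 0.27 and Opn1sw within -0.42 and 0.12 on the log2 scale. Those of the other members were wider: Gngt2 -0.48 to 0.15, Opn1mw -0.49 to 0.19, Cngb3 -0.58 to 0.1, Kcne2 -0.78 to 0.06, Pde6h -0.4 to 1.2 and Cnga3 -0.02 to 2.48. These intervals hold for each gene alone, without adjustment over genes, and are not limits of detection. Differences inside them are not excluded. The difference between the Gne effects with and without C3 was called for 0% of genes by edgeR, and no member reached an unadjusted p under 0.05, while 554 of all genes did.

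Every one of the 10 genes differed between the sequencing runs. In run 2 against run 1, 59.5% of tested genes were called, and of the members 8 fell and 2 rose. Kcne2 fell by 2.55 (SE 0.182), Gngt2 by 2.25 (SE 0.134), Opn1sw by 1.72 (SE 0.112), Gnat2 by 1.58 (SE 0.0763) and Arr3 by 1.53 (SE 0.112) on the log2 scale. Pde6c fell by 1.39 (SE 0.118), Opn1mw by 1.01 (SE 0.134) and Cngb3 by 0.37 (SE 0.13), with edgeR adjusted p for Cngb3 of 0.0147. Cnga3 rose by 2.31 (SE 0.454) and Pde6h by 1.35 (SE 0.288), so genes of one complex moved in opposite ways between the runs. Among 10 further cone genes, chosen beside the members, 4 rose and 3 fell, with Gnb3, the cone transducin beta subunit, higher by 2.01 (SE 0.106) and Thrb, the thyroid hormone receptor needed for middle-wavelength opsin, higher by 1.24 (SE 0.073). Levels of single members are therefore given for each run apart where genotypes are compared.

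Over the libraries of each run, genotypes together, the members did not vary as a block. Log2 CPM centred within run gave 45 pairs of members, 24 with a positive and 21 with a negative Pearson r, and a median r of 0.05 (n = 27 libraries; the levels within a library share its total). After adjustment over the 45 pairs, 5 positive and 2 negative correlations had p under 0.05 by permutation within run (100000 draws), and 3 of these 7 also by Spearman's rho. Opn1mw and Arr3 had r = 0.72 (permutation p = 9e-05, adjusted 0.00225; Spearman rho 0.64, adjusted p = 0.0147), and 0.63 without the 2 libraries farthest from the Opn1mw median. That relation was 0.86 in run 1 (n = 18) and -0.19 in run 2 (n = 9), so it did not hold in both. Arr3 and Pde6c had r = 0.71 (permutation p = 1e-04, adjusted 0.00225; rho 0.74), 0.73 without the 2 farthest libraries, 0.69 in run 1 and 0.88 in run 2. Opn1sw and Gngt2 had r = 0.66 (permutation p = 0.00018, adjusted 0.0027; rho 0.71), 0.65 without the 2 farthest, 0.73 in run 1 and 0.58 in run 2. Of the negative pairs, Cnga3 had r = -0.58 with Opn1mw and Pde6h had r = -0.57 with Cngb3 (permutation, adjusted p = 0.0325 each), but by Spearman's rho neither passed (-0.55 and -0.49, permutation adjusted p = 0.0693 and 0.12). The first was -0.6 in run 1 and -0.43 in run 2, and the second -0.67 in run 1 and 0.55 in run 2. Only the run was centred, so all these values can hold genotype differences. With genotype centred too, Opn1mw and Arr3 had r = 0.7, Arr3 and Pde6c 0.57, and Opn1sw and Gngt2 0.7. Larger shifts were seen for Pde6c with Cngb3 (0.23 to 0.88), Arr3 with Cngb3 (0.27 to 0.6) and Pde6c with Pde6h (-0.17 to -0.69).

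**Figure D4:**
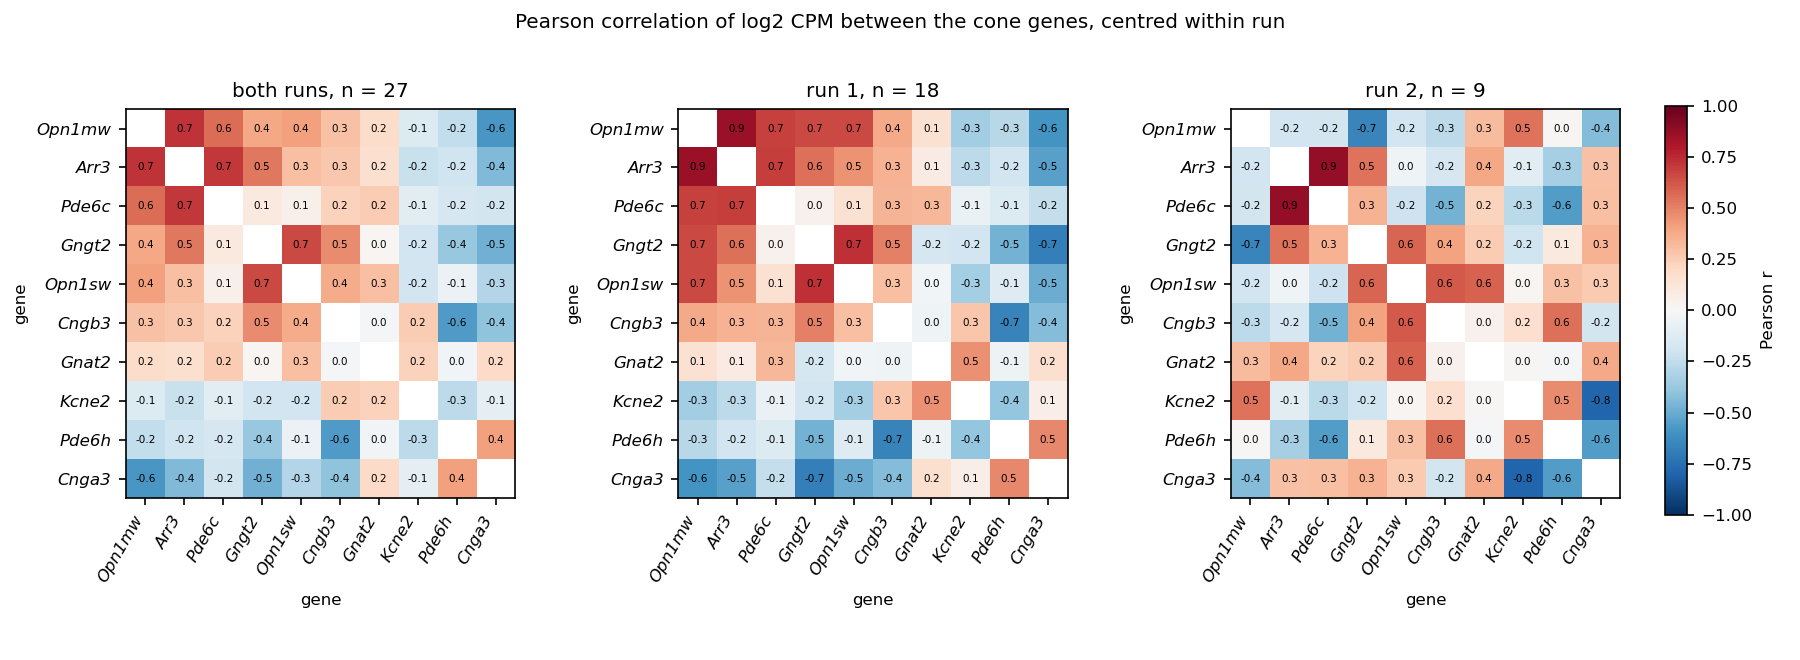
Pearson correlation between the cone genes of log2 CPM centred within run, for all 27 libraries, for the 18 of run 1 and for the 9 of run 2; red is positive and blue negative. The block of positive values among Opn1mw, Arr3, Pde6c, Gngt2 and Opn1sw in run 1 is broken in run 2, where Opn1mw with Arr3 is -0.19 and Arr3 with Pde6c is 0.88.

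A leading axis of the libraries, the first component of all genes centred on genotype and run (14.9% of the variance), moved with several members. The axis had r = 0.86 with Opn1mw, 0.77 with Arr3, 0.75 with Gngt2, 0.64 with Opn1sw and -0.62 with Cnga3, against 0.29 with Pde6c and -0.18 with Gnat2. Rgs9bp, which anchors the photoreceptor deactivation complex, followed it with r = -0.96 and ranged from 206 to 2650 CPM among wildtype libraries of run 1 but only from 443 to 453 CPM in run 2. The part of this axis in the correlations above was not tested. With it as a covariate, an alternative added after the data were seen, Pde6c in Gne+/- C3-/- against Gne+/- had an edgeR adjusted p of 0.00436 and Arr3 one of 0.039. The named genes most like the members' mean standardised level over the 27 libraries, centred within run, were Bsn (r = 0.82), Trim8 (0.81), Brsk2 (0.8), Dnajb1 (0.79), Scmh1 (0.79), H2afz (0.78), Nefm (0.77) and Cic (0.77).

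Other lists showed no genotype call. Of the 10 further cone genes, 0 were called in any of the 6 genotype comparisons. Ccdc136 came nearest to the threshold, at a log2 fold change of 0.53 (SE 0.16, edgeR adjusted p = 0.372) for Gne+/- C3-/- against Gne+/- and 0.45 (SE 0.155, adjusted p = 0.642) for C3-/- against wildtype. In run 1 Ccdc136 lay between 139 and 244 CPM in Gne+/- C3-/- and between 84.3 and 160 CPM in Gne+/- libraries, so the groups overlapped. Of 13 rod phototransduction genes 0 were called in these comparisons, with median log2 differences of 0.13 for Gne+/- C3-/- against Gne+/- and 0.1 for C3-/- against wildtype. Of 7 tested genes of the visual cycle 0 were called.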

How the data were processed

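Raw gene counts of 27 retinal 3′ mRNA libraries were used as deposited; the authors made them with STAR 2.7.3a and featureCounts, per the submitters' processing notes, on GRCm38 with Ensembl release 101, per the file headers. Counting took exons and whole genes, without strand, and reads over more than 1 gene were dropped, per the file headers. Counts were scaled with TMM and tested with edgeR 4.0.16 (R 4.3.3; quasi-likelihood, robust; genotype and run as terms). Of the 55487 genes, filterByExpr with a minimum count of 10 kept 17409, all 10 members among them; 22 residual degrees of freedom remained. Adjusted p-values are Benjamini-Hochberg over all 17409 genes, with a threshold of 0.05. The 4 opsin ratio tests are exact permutations within run. On simulated counts over 17409 genes the edgeR fit recovered 44% of 2-fold and 62% of 4-fold changes for Gne+/- against wildtype, and 32% and 58% for C3-/- against wildtype. The simulated counts held no run effect, and the changed genes were drawn from all tested genes, so these are not rates for the members. Library totals were 13.5 to 34.2 M counts. Alternatives were RLE factors, DESeq2 1.42.0, filters on low counts, other model terms, single runs and each library left out. The members, lists and tests were chosen with earlier results of these data known. Named genes were the 10 members, genes of fixed lists by smallest p, the 8 annotated genes most like the members, Gne and C3; genes near Pde6c and the Pde6c to Cngb3 ratio were chosen after their values were seen.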

Additional observations from a re-analysis of the deposited data

Results flagged for a closer look

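Within genotype groups of run 1, 40 groups of 4 or 5 libraries were searched for a library whose gap to its nearest neighbour took an unusual share of the group's range, and 3 were found; chance flags about 1 in 20 groups. Gngt2 was low in Gne+/- C3-/- mouse 3, at 231 CPM against 301 to 311 CPM in the other 3 libraries. Gngt2 was high in Gne+/- mouse 5, at 447 CPM against 256 to 301 CPM in the other 4. Kcne2 was high in C3-/- mouse 5, at 113 CPM against 81.5 to 84.8 CPM in the other 3.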

How the results depend on the processing

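All 10 run differences kept their direction and call under every alternative that holds a run term. Called members stayed at 0 for both Gne comparisons and for their difference under all alternatives. For Gne+/- C3-/- against Gne+/- the count of 1 became 0 with no run term and in run 1 or run 2 alone, and 2 (Pde6c and Arr3) with the leading component as covariate. For Gne+/- C3-/- against wildtype the count of 1 became 0 with RLE factors, no run term, run 1 or run 2 alone and the Y-linked covariate, and 2 (Pde6c and Pde6h) with no low-count filter, which also gave 1 (Pde6c) for C3-/- against wildtype. The log2 difference of Pde6c stayed positive throughout. Leaving out single libraries gave 0 to 1 called members in each of the 2 comparisons with a call. The cause of these shifts was not tested; single runs hold fewer samples. With mouse number as replicate block in place of the run term, both calls became 0 (Pde6c 0.67, edgeR adjusted p = 0.0804, against Gne+/-, and 0.6, adjusted p = 0.206, against wildtype). Same-numbered libraries of different genotypes correlated at -0.06 to 0.27 over 31 pairs, with 4 over 0.1. They were not set against differently numbered libraries, so whether the numbers pair the mice was not tested.

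The opsin log2 ratio of Gne+/- against wildtype turned to 0.3 in run 2 alone and ran from -0.15 to 0.06 with single libraries left out. With single libraries left out it ran from -0.57 to -0.35 for C3-/- against wildtype, where leaving out wildtype mouse 7 or C3-/- mouse 7 gave an exact permutation adjusted p of 0.0159, and from -0.35 to -0.23 for Gne+/- C3-/- against Gne+/-, where leaving out Gne+/- mouse 4 gave 0.0381. Adding 5 counts changed no call. Of 58 member values without a call, 25 changed sign under at least 1 alternative. Over all genes, calls for Gne+/- C3-/- against Gne+/-, C3-/- against wildtype and Gne+/- C3-/- against wildtype were 33, 29 and 27, against 87, 63 and 56 by DESeq2, 306, 91 and 118 with no filter, 246, 46 and 43 with the leading component, and 13 each with no run term. In run 2 alone they were 11, 28 and 15. For Gne+/- against wildtype 1 call became 8 by DESeq2, 72 with no filter, 3 with the leading component and 0 with no run term; for Gne+/- C3-/- against C3-/- 1 became 9 with no filter, 5 in run 2 alone and 0 with no run term; and for the difference between both Gne effects 0 became 30 with no filter and 4 in run 2 alone. Cnga3 had the fewest counts of the members (median 28 a library) and the largest spread between mice, and what each adds to its intervals was not tested.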

Other observations

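Genes around Pde6c on chromosome 19 were also read, a window chosen after the Pde6c result was known. Of 28 tested genes that start within 2 Mb of it, Pde6c included, 4 had an unadjusted p under 0.05 with the same sign in both C3 comparisons, which share no library; over all 17409 tested genes 178 did (1.02%). The others were Exoc6, a gene of vesicle tethering, at -611.9 kb, with log2 values of -0.42 for Gne+/- C3-/- against Gne+/- and -0.54 for C3-/- against wildtype, Noc3l at 686.5 kb (0.83 and 1.06) and Tbc1d12 at 703.8 kb (-0.55 and -0.49). None of these 3 passed edgeR's adjusted p of 0.05, and their signs differ. Pde6c was counted among the 4 by the choice of window, so the counts are not a test of the region. Rbp4, which starts at -7.5 kb, had log2 values of -0.76 and -0.99 with unadjusted p of 0.263 and 0.127.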
